A study of Mus musculus with 17 samples.

Results

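Potassium channel subunits are the proteins that form potassium-selective pores in cell membranes, together with the auxiliary proteins that bind those pores. Their genes were taken here as genes whose symbol on the array platform begins with Kcn and that have a probe set annotated to them alone. A gene that is not reported here was left out. A gene with several such probe sets was represented by the one whose mean log2 signal over 17 arrays was highest. This gave 83 members of the 18194 genes measured, of which 80 are protein coding and 3 (Kcnq1ot1, Kcnmb4os1 and Kcnmb4os2) are non-coding RNAs named after a neighbouring channel gene. The members fall into subfamilies by the letters after Kcn.

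RNA was measured in the thoracic spinal cord of female C57BL/6 mice, with 1 array per mouse. The labels give an age of 8 weeks without naming the step it refers to, and no age at sampling was found. In 6 mice with targeted EAE (experimental autoimmune encephalomyelitis) a humanized anti-RGMa antibody was given, 5 mice with targeted EAE received an isotype control antibody, and 6 naïve mice were left untreated. Targeted EAE mice were immunized with a myelin peptide and given pertussis toxin, and after a laminectomy TNF-α and IFN-γ were injected into the cord at the eighth thoracic level, so that the lesion forms there. RGMa, repulsive guidance molecule-a, is a protein that repels growing axons, and the isotype control antibody, palivizumab, is directed against a virus. Antibody treatment (10 mg/kg) started at 9 days post-induction (DPI), and a cord segment of 4.5 mm centred on the injection site was taken at 14 DPI. Naïve mice had neither the surgery nor the toxin nor an antibody, so that these cannot be told apart from the immune disease in any comparison with naïve cord.

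Potassium channels let potassium leave the cell, which holds the resting potential, ends the action potential and sets how often a neuron can fire. Voltage-gated channels are made of pore subunits (Kcna, Kcnc, Kcnd, Kcnh, Kcnq) with cytoplasmic or membrane partners (Kcnab, Kcnip, Kcne), while other pores open with calcium or sodium (Kcnma, Kcnn, Kcnt), rectify inward (Kcnj) or leak at rest (Kcnk, the tandem-pore family). In myelinated axons of the cord, Kcna channels lie under the myelin beside the node of Ranvier and Kcnq channels lie at the node itself. T cells, macrophages and microglia use a few potassium channels of their own to sustain calcium entry and inflammasome activation.

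The promoters of 3 members are shown because the members stand for the 2 directions seen in EAE cord, a rise (Kcnn4) and a fall (Kcna2 and Kcnip2). Each is the window of 250 bases before a RefSeq start site in GRCm38.p6, 5′ to 3′ on the strand of the gene, with CpG dinucleotides in capitals. The Kcna2 window lies within the annotated gene (chr3:107090883-107115005), so it precedes an inner start site and not the outer 5′ end.
Kcnn4 (chr7:24370013-24370262, plus strand): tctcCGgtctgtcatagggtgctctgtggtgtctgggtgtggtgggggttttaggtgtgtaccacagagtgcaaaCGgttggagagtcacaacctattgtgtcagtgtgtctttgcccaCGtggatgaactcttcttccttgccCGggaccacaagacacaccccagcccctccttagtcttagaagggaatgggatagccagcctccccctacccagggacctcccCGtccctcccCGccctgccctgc
Kcna2 (chr3:107101317-107101566, plus strand): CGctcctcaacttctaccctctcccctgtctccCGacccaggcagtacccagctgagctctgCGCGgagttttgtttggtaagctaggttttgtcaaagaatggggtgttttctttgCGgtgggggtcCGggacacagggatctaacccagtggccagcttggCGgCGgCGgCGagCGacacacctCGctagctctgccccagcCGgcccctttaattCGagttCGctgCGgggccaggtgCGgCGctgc
Kcnip2 (chr19:45816064-45816313, minus strand): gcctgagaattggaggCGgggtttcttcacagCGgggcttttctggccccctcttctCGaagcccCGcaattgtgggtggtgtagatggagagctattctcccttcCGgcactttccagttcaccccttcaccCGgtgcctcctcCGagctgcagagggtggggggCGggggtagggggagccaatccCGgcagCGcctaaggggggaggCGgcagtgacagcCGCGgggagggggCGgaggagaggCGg
The Kcnn4 window held 6 CpG, and 50.4% of all 32851 windows held at least as many. The Kcna2 window held 18 CpG (as many or more in 21.7% of all windows) and the Kcnip2 window 15 (27.3%). RefSeq windows were found for 63 members, 88 windows in all, with a median of 7 CpG, against 6 over all genes. The GC box (GGGCGG, either strand) was present in 44.3% of the members' windows and 32.7% of all windows, and the TATA box (TATAAA) in 3.41% and 12.4%. The AP-1 motif TGANTCA stood in 4.55% of the members' windows and 6.75% of all, and the interferon-type GAS motif TTCNNNGAA in 7.95% and 7.02%. These letters were counted as a description, and a match is not a binding site.

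Signals are log2 of the scaled array signal, so that a difference of 1 is a doubling. Of the 83 members, 42 reached a mean log2 signal of 8 in some group, and 28 stayed under 7 in every group, where signals carry more background. Probe sets differ in how well they bind, so levels are not compared between genes. The median signal of an array ranged from 136 to 157 in anti-RGMa, from 137 to 165 in isotype control and from 132 to 145 in naïve mice. Each array came from its own animal, and p-values rest on the spread between animals, pooled over the 3 groups. P-values and SEs between the antibody groups therefore also draw on the naïve arrays. For some members the naïve spread was smaller (Kcna2, SD 0.06 in naïve, 0.44 in anti-RGMa and 0.51 in isotype control). For others it was not (Kcna5, SD 0.33, 0.17 and 0.27). In the isotype control group, 3 arrays (replicates 3, 4 and 5) carried skeletal muscle RNA, with a mean log2 signal of 9 muscle markers above 9. This mean was at most 7.54 in anti-RGMa arrays and 4.24 to 8.17 in naïve arrays, where replicate 4 was the highest and the others reached 6.16. Anti-RGMa replicates 1 and 6 carried dorsal root ganglion RNA, with marker means of 9.51 and 7.99, against 5.29 to 6.16 in isotype control and 5.71 to 7.37 in naïve mice, where replicate 5 was the highest. In bulk tissue, fewer cells of a type and less RNA per cell cannot be told apart.

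In EAE cord given the isotype control antibody, most potassium channel subunits were lower than in naïve cord. Of 83 members, 45 were lower and 6 higher at an adjusted p under 0.05 (limma, Benjamini-Hochberg over all genes), where 27.2% of all genes were lower and 24.6% higher. The median log2 fold change of the members was -0.82, against -0.04 over all genes. In anti-RGMa-treated EAE cord, 33 members were lower and 4 higher than in naïve cord, where 21.6% and 20.3% of all genes were called, with a median of -0.46 against -0.03. The same naïve arrays enter both comparisons. Without the 3 isotype control arrays with muscle RNA, 40 members were lower and 4 higher in isotype control cord. Without the 2 anti-RGMa arrays with dorsal root ganglion RNA, 23 were lower and 4 higher in anti-RGMa cord. Both fits have fewer arrays, and shares of all genes are not set beside their counts. For single members it is stated below whether EAE and naïve arrays overlapped. The share of all genes without such overlap was not counted, so separation is not read as particular to the members.

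**Figure D1:**
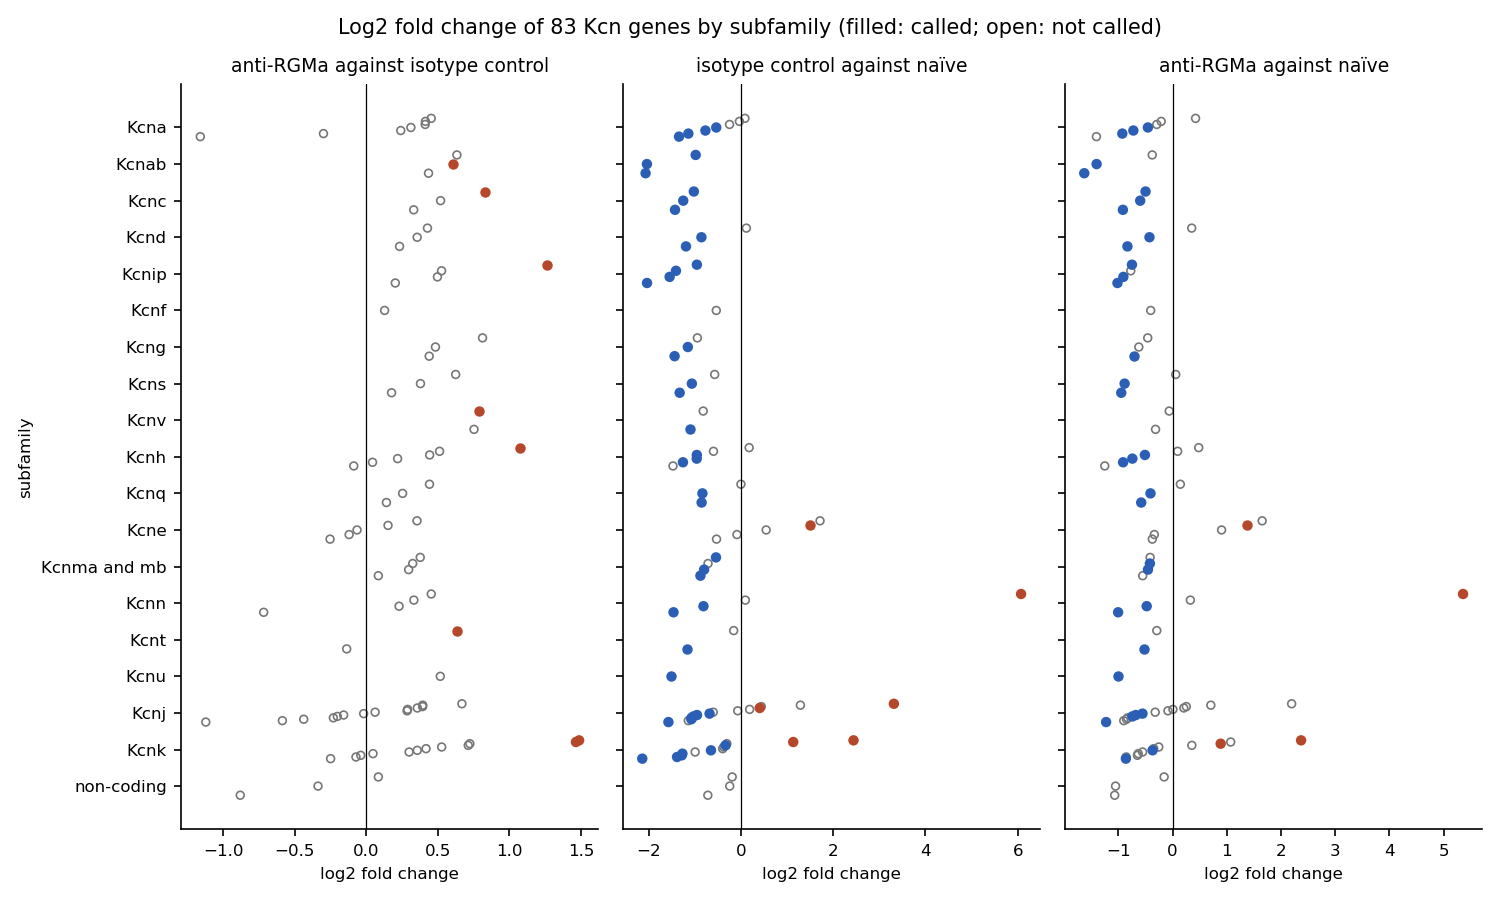
Log2 fold change (x axis) of each of the 83 members, by subfamily (y axis), for anti-RGMa against isotype control (left), isotype control against naïve (middle) and anti-RGMa against naïve (right). Filled points passed the threshold (red higher, blue lower) and open points did not. Points of the middle and right panels lie mostly left of 0, with Kcnn4 far to the right, and in the left panel all 8 filled points lie right of 0.

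Neuronal and immune marker genes moved in the same arrays. All 10 neuron markers (such as Rbfox3, Snap25 and Nefl) were lower in isotype control than in naïve cord, with a median log2 fold change of -1.04. Their mean log2 signal per array was 11.77 to 12.74 in anti-RGMa, 11.55 to 12.34 in isotype control and 13.08 to 13.15 in naïve cord. Of 11 microglia and macrophage markers 10 were higher in isotype control than in naïve cord, and their mean per array was 10.95 to 11.70 in anti-RGMa, 10.98 to 11.72 in isotype control and 7.60 to 8.28 in naïve cord. Isotype control replicates 1 and 5 and anti-RGMa replicate 6 had the lowest neuron means of their groups (11.55, 11.62 and 11.77) and the highest microglia and macrophage means. Anti-RGMa replicate 6 is also among the arrays with ganglion RNA. A fit without those arrays changes both, and these cannot be told apart there. The part of neurons, microglia and macrophages in the falls and rises of the members against naïve cord was not tested.

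**Figure D2:**
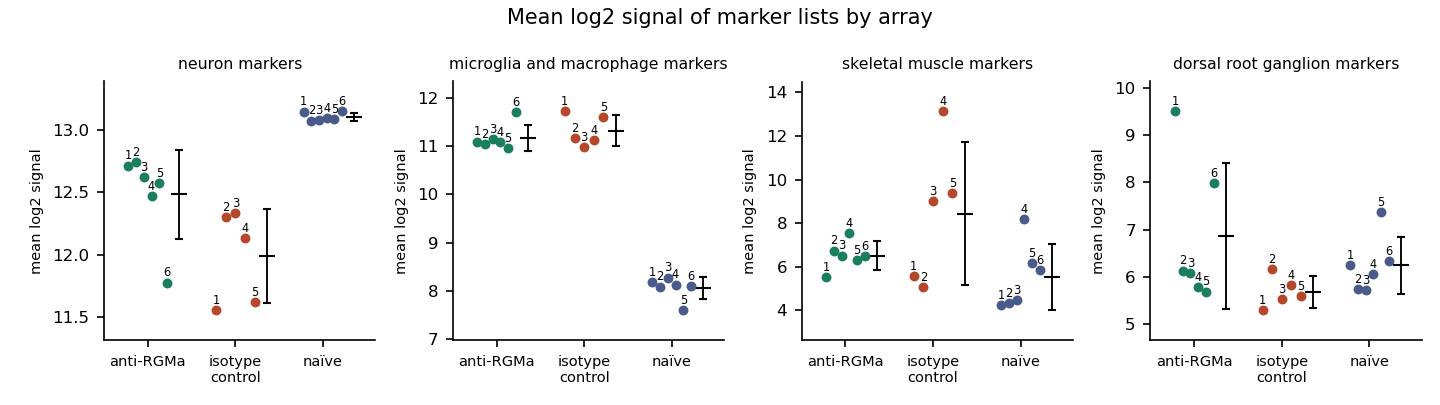
Mean log2 signal (y axis) of the neuron, microglia and macrophage, skeletal muscle and dorsal root ganglion marker lists in each array (points, numbered by replicate), with the group mean and SD, for anti-RGMa, isotype control and naïve mice. Neuron means lie at 13.08 to 13.15 in naïve mice and at 12.74 or below in every EAE array, and the muscle and ganglion panels show single arrays above the rest of their group, naïve replicate 4 (muscle) and 5 (ganglion) among them.

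Among the axonal Kcna channels and their cytoplasmic beta subunits, 4 of 7 Kcna and 3 of 3 Kcnab genes were lower in isotype control than in naïve cord. Kcna2, a pore subunit of the channels beside the node, had log2 signals of 10.29 to 11.47 (median 11.30) in anti-RGMa, of 10.24, 11.06, 11.31, 10.99 and 10.20 in isotype control and of 12.04 to 12.19 (median 12.07) in naïve cord. Every EAE array lay below every naïve array, and the EAE groups overlapped. The log2 fold change was -1.34 ± 0.22 (SE) for isotype control against naïve (2.53-fold, adjusted p = 0.000117) and -0.93 ± 0.21 for anti-RGMa against naïve (adjusted p = 0.0025). Averaged over its 4 probe sets the second was -0.52 and no longer passed.

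Kcna1, its usual partner in the pore, ranged from 12.16 to 12.72 (median 12.67) in anti-RGMa and from 12.94 to 13.30 (median 12.96) in naïve cord, with 11.91, 12.54, 12.59, 12.45 and 11.88 in isotype control. The naïve arrays again lay above all EAE arrays. Its log2 fold change was -0.77 ± 0.15 in isotype control (adjusted p = 0.000368) and -0.46 ± 0.14 in anti-RGMa against naïve (adjusted p = 0.0153), and the call against naïve in anti-RGMa was lost without the 2 arrays with ganglion RNA (-0.38). Kcna4, an A-type pore subunit, also changed by -1.14 on the log2 scale in isotype control and passed. Kcna5, Kcna6 and Kcna7, other pore subunits, did not pass, although 2 of 3 Kcna6 probe sets were lower.

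Kcnab1, a beta subunit that inactivates Kcna channels, had one of the largest falls. Its log2 signal was 9.07 to 10.71 (median 10.41) in anti-RGMa, 8.66, 10.15, 10.37, 9.78 and 9.10 in isotype control, and 11.43 to 11.80 (median 11.66) in naïve cord. All EAE arrays lay below the naïve ones. The fold change was 4.10 downwards in isotype control (log2 -2.03 ± 0.31, adjusted p = 5.01e-05) and 2.64 in anti-RGMa cord (log2 -1.40 ± 0.29, adjusted p = 0.00127), and both of its probe sets were lower in isotype control. Kcnab3, another beta subunit, changed by -2.06 ± 0.36 in isotype control and by -1.63 ± 0.35 in anti-RGMa. Kcnab2, which carries Kcna channels into the axon, changed by -0.98 ± 0.18 in isotype control (adjusted p = 0.000239). Its change of -0.38 in anti-RGMa against naïve did not pass (adjusted p = 0.0883). That change did pass averaged over its 2 probe sets (-1.13) and without anti-RGMa replicate 2 (-0.45). The other Kcnab2 probe set changed by -1.88 in anti-RGMa against naïve.

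**Figure D3:**
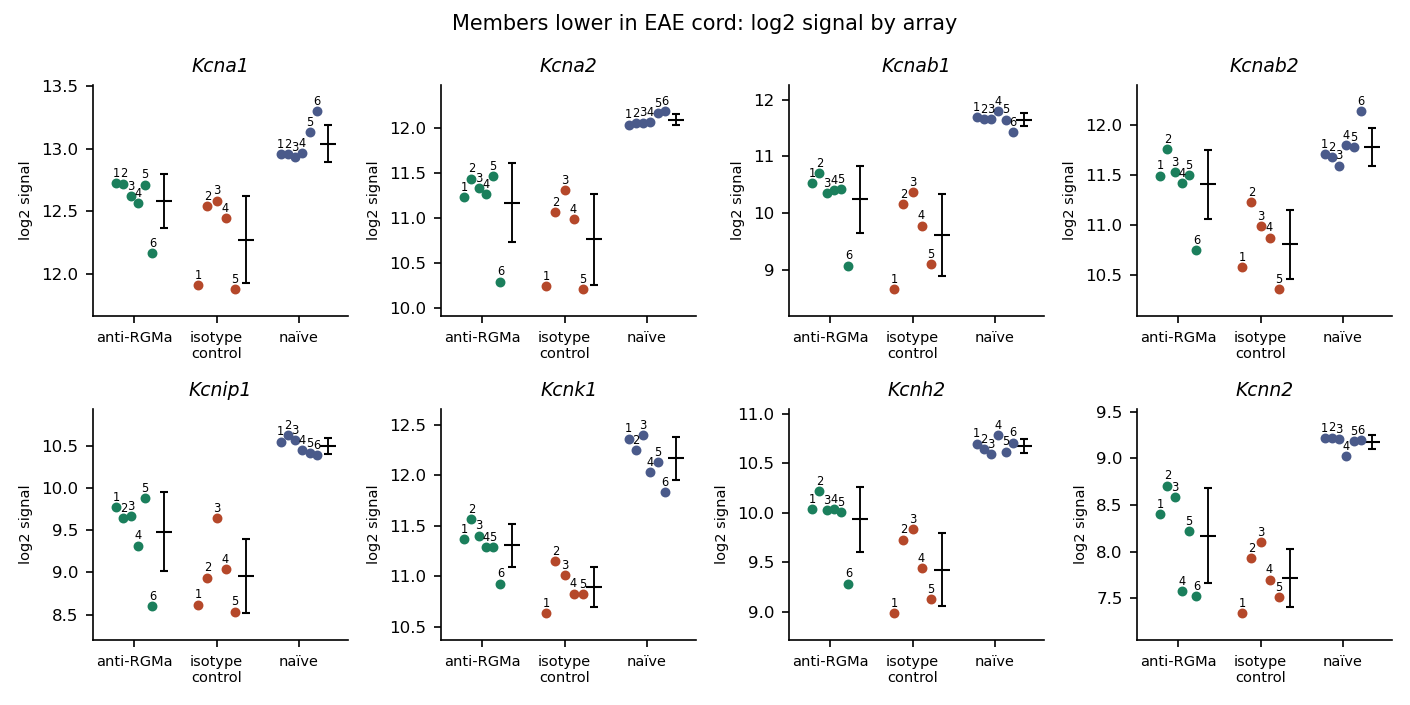
Log2 signal (y axis) of 8 members that were lower in isotype control than in naïve cord, in each array (points, numbered by replicate) with the group mean and SD, for anti-RGMa, isotype control and naïve mice. In the panels of Kcna1, Kcna2, Kcnab1, Kcnip1, Kcnk1, Kcnh2 and Kcnn2 no EAE array reaches the naïve range, and in Kcnab2 1 anti-RGMa array (replicate 2, 11.76) does. The share of all genes without overlap was not counted.

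The Kcnc genes encode the fast channels that let neurons fire at high rates, and 3 of 3 were lower in isotype control cord. Kcnc1 had log2 signals of 11.22 to 12.23 (median 12.03) in anti-RGMa, of 11.03, 11.84, 11.98, 11.30 and 10.98 in isotype control, and of 12.33 to 12.63 (median 12.43) in naïve cord. No EAE array reached the naïve range. The log2 fold change was -1.02 ± 0.20 in isotype control (adjusted p = 0.000453). For anti-RGMa against naïve it was -0.50 ± 0.19 (adjusted p = 0.0451), and this call was lost without any 1 of the naïve arrays, of anti-RGMa replicates 3 to 6 or of isotype control replicate 4 (-0.35 to -0.55 over all arrays left out). Kcnc2 changed by -1.25 ± 0.25 in isotype control and by -0.92 ± 0.23 in anti-RGMa against naïve, and both passed.

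The A-type channels of dendrites are built from Kcnd pores with Kcnip subunits, calcium-binding proteins that bring the pore to the membrane. In isotype control cord 2 of 3 Kcnd and 4 of 4 Kcnip genes were lower. Kcnip1 had 8.60 to 9.88 (median 9.65) in anti-RGMa, 8.62, 8.94, 9.64, 9.04 and 8.54 in isotype control and 10.38 to 10.62 (median 10.50) in naïve cord, with no overlap between EAE and naïve arrays. Its log2 fold change was -1.54 ± 0.22 in isotype control (adjusted p = 2.83e-05) and -1.02 ± 0.21 in anti-RGMa (adjusted p = 0.00111). Kcnip4 changed by -1.41 ± 0.19 in isotype control and -0.91 ± 0.18 in anti-RGMa, and Kcnip3 changed by -0.95 in isotype control. Kcnd2, an A-type pore, averaged 10.49 ± 0.34 in anti-RGMa (SD, n = 6), 10.14 ± 0.48 in isotype control (n = 5) and 11.32 ± 0.10 in naïve cord (n = 6). It changed by -1.19 ± 0.20 (log2, SE) in isotype control and by -0.83 ± 0.19 in anti-RGMa. Kcnd3 changed by -0.85 in isotype control and -0.43 in anti-RGMa, and Kcnd1 did not pass, although 1 of its 3 probe sets was lower.

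Subunits that form no channel alone and modify other pores (Kcnf, Kcng, Kcns, Kcnv) were lower in isotype control in 5 of 9 cases. Kcng4 averaged 8.82 ± 0.27 in anti-RGMa, 8.38 ± 0.40 in isotype control and 9.53 ± 0.20 in naïve cord, with log2 fold changes of -0.71 ± 0.16 (SE) in anti-RGMa and -1.15 ± 0.17 in isotype control, which both passed. Kcns2 changed by -1.33 ± 0.20 and Kcns3 by -1.06 ± 0.27 in isotype control cord. Kcnf1, the only Kcnf gene, averaged 5.80 in anti-RGMa, 5.67 in isotype control and 6.20 in naïve cord and did not pass in any comparison.

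Of the Kcnh and Kcnq genes, 3 of 6 and 2 of 3 were lower in isotype control cord. Kcnh2, the pore of the slowly deactivating ERG current, had 9.28 to 10.22 (median 10.03) in anti-RGMa, 8.98, 9.73, 9.83, 9.44 and 9.13 in isotype control and 10.60 to 10.79 (median 10.67) in naïve cord. EAE and naïve arrays did not overlap. The log2 fold change was -1.25 ± 0.17 in isotype control (adjusted p = 1.72e-05) and -0.74 ± 0.16 in anti-RGMa (adjusted p = 0.00161). Kcnq3, a pore of the nodal M-current, had -0.85 ± 0.13 in isotype control (adjusted p = 4.66e-05) and -0.41 ± 0.12 in anti-RGMa (adjusted p = 0.0127), and averaged over its probe sets the second did not pass (-0.17). Kcnq5 changed by -0.83 in isotype control and -0.58 in anti-RGMa, and neither passed when averaged over its probe sets (-0.89 and -0.23). Kcnh1 and Kcnh8 changed by -0.95 and -0.96 in isotype control.

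The calcium-activated, sodium-activated and related large-conductance channels moved in both directions. In isotype control cord 3 of 4 Kcnma and Kcnmb, 2 of 4 Kcnn, 1 of 2 Kcnt and 1 of 1 Kcnu genes were lower, and 1 Kcnn gene was higher. Kcnn2, a small-conductance calcium-activated pore, had 7.53 to 8.71 (median 8.31) in anti-RGMa, 7.34, 7.93, 8.10, 7.70 and 7.51 in isotype control and 9.03 to 9.22 (median 9.20) in naïve cord. The EAE arrays lay wholly below the naïve ones, with log2 fold changes of -1.46 ± 0.20 in isotype control (adjusted p = 2.76e-05) and a 2.01-fold lower level in anti-RGMa (adjusted p = 0.000777). Kcnt1, a sodium-activated pore, changed by -1.16 ± 0.19 in isotype control (adjusted p = 8.68e-05). Kcnma1, the pore of the large-conductance calcium-activated channel, changed by -0.80 ± 0.15 in isotype control, and averaged over its 5 probe sets it had -0.34, which did not pass. Its neuronal beta subunit Kcnmb4 changed by -0.54 ± 0.15 in isotype control, a call lost without the 3 muscle arrays (-0.47). Kcnu1, which encodes a pore known from sperm, changed by -1.52 ± 0.22 in isotype control.

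Kcnn4, the intermediate-conductance calcium-activated channel of T cells and macrophages, rose more than any other member. Its log2 signal was 7.60 to 9.56 (median 7.83) in anti-RGMa, 9.32, 9.12, 8.40, 8.19 and 9.42 in isotype control and 2.28 to 4.45 (median 2.52) in naïve cord. The naïve signals were near the bottom of the array range, and every EAE array lay far above them. The log2 fold change was 6.07 ± 0.42 in isotype control (adjusted p = 1.97e-08) and 5.36 ± 0.40 in anti-RGMa (adjusted p = 5.33e-08). Because of the low naïve signal its size depends on the offset, and adding 32 to each signal gave 3.67 and 3.02, which both passed. The other Kcnn4 probe set rose by 3.68 in isotype control. Anti-RGMa arrays lay on average 0.72 below isotype control arrays on the log2 scale, which did not pass (limma, unadjusted p = 0.108). This difference did pass as lower with an offset of 16 (-0.68) or 32 (-0.65), and without naïve replicate 5 (-0.72) or anti-RGMa replicate 6 (-0.995). It also passed without the 2 ganglion arrays (-0.97) and with the ganglion marker mean of each array as a covariate (-1.005). With the neuron marker mean as a covariate it turned to 0.0676.

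Kcnk6, a tandem-pore channel known in macrophages for potassium efflux, had 9.68 to 10.37 (median 9.91) in anti-RGMa, 10.19, 9.87, 9.72, 10.02 and 10.25 in isotype control and 6.93 to 7.80 (median 7.66) in naïve cord. It was 5.43-fold higher in isotype control (log2 2.44 ± 0.16, adjusted p = 1.29e-08) and 5.17-fold higher in anti-RGMa (log2 2.37 ± 0.15, adjusted p = 1.25e-08), with no overlap. Kcne1l, a single-pass auxiliary subunit now named Kcne5 in some annotations, averaged 9.04 ± 0.41 in anti-RGMa, 9.16 ± 0.55 in isotype control and 7.67 ± 0.20 in naïve cord. It rose by 1.49 ± 0.23 (log2, SE) in isotype control and by 1.37 ± 0.22 in anti-RGMa cord, and it was the only 1 of 5 Kcne genes to pass.

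Kcnk5, another tandem-pore channel, rose by 1.14 ± 0.23 in isotype control and 0.89 ± 0.22 in anti-RGMa. Averaged over its 2 probe sets it had 0.55 in isotype control and 0.09 in anti-RGMa, and neither passed. Kcnj15, an inward rectifier, had 2.57, 7.53, 7.82, 7.66 and 5.42 in isotype control, where replicate 1 lay among the naïve arrays (0.76 to 4.75), and 2.79 to 6.26 in anti-RGMa. Its log2 fold change of 3.32 ± 1.01 in isotype control passed (adjusted p = 0.0111), but not when its 3 probe sets were averaged (1.09) nor without the 3 muscle arrays (2.17). The naïve signals were near the bottom of the array range, and adding 32 to each signal gave 1.61, which passed. Kcnj11, the pore of the ATP-sensitive channel of neurons, rose by 0.41 ± 0.15 in isotype control (adjusted p = 0.0317). This call was lost without naïve replicate 1 (0.39) or 3 (0.39), without isotype control replicate 3 (0.41) or 5 (0.32) and without the 3 muscle arrays (0.25). The other Kcnj11 probe set fell by 1.74 in isotype control cord.

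**Figure D4:**
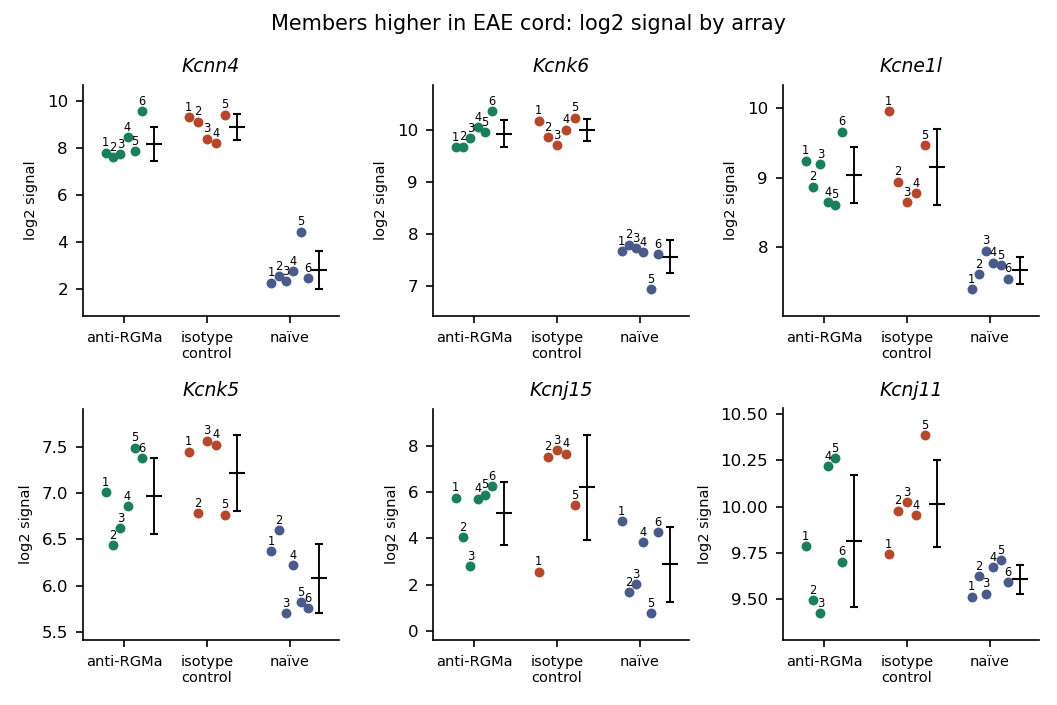
Log2 signal (y axis) of the 6 members that were higher in isotype control than in naïve cord, in each array (points, numbered by replicate) with the group mean and SD, for anti-RGMa, isotype control and naïve mice. Kcnn4, Kcnk6 and Kcne1l separate all EAE arrays from all naïve arrays, while Kcnk5, Kcnj15 and Kcnj11 overlap with naïve in at least 1 EAE group. How many of all genes separate in this way was not counted.

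Kcna3, Kcnk13 and Kcnj8, which are also known from immune cells or vessels, did not rise in this way. Kcna3, which T cells and activated microglia use, averaged 6.21 ± 0.48 in anti-RGMa, 5.97 ± 0.31 in isotype control and 6.50 ± 0.20 in naïve cord, while 5 of 6 T cell markers were higher in isotype control than in naïve cord. Its change of -0.53 ± 0.21 in isotype control passed (adjusted p = 0.0404), a call lost without naïve replicates 2 to 6 or isotype control replicates 1 to 4, each left out alone (-0.47 to -0.67 over all arrays left out), and without the 3 muscle arrays (-0.64). Kcnk13, the tandem-pore channel of resting microglia, averaged 8.63 ± 0.15 in anti-RGMa, 8.58 ± 0.32 in isotype control and 8.88 ± 0.20 in naïve cord and did not pass. Kcnj8, the pore of the vascular ATP-sensitive channel, averaged 7.86 ± 0.22 in anti-RGMa, 7.88 ± 0.11 in isotype control and 7.95 ± 0.24 in naïve cord and did not pass.

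Among inward rectifiers, 6 of the 14 Kcnj members were lower and 2 higher in isotype control cord. Kcnj3 and Kcnj9, pores opened by G proteins in neurons, changed by -1.03 ± 0.18 and -1.57 ± 0.51 there, and Kcnj6 of the same group had 0.19, which did not pass. Kcnj16, a rectifier of glia, averaged 9.04 ± 0.32 in anti-RGMa, 8.68 ± 0.34 in isotype control and 9.36 ± 0.26 in naïve cord, and its change of -0.68 ± 0.18 (SE) in isotype control had the same size without the 3 muscle arrays (-0.68) but did not pass there. Among tandem-pore channels, 6 of 12 were lower and 2 higher. Kcnk1, which astrocytes and neurons express, had 10.93 to 11.57 (median 11.33) in anti-RGMa, 10.63, 11.15, 11.01, 10.83 and 10.83 in isotype control and 11.83 to 12.40 (median 12.19) in naïve cord. It changed by -1.28 ± 0.13 in isotype control (adjusted p = 9.37e-07) and by -0.86 ± 0.12 in anti-RGMa (adjusted p = 4.98e-05), with no overlap. Kcnk12 and Kcnk3 had -1.38 and -1.27 in isotype control, and both passed, though Kcnk3 did not without the 3 muscle arrays (-1.17). Of the 3 non-coding RNAs 0 passed.

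Between the antibody groups, the members past the threshold were all higher in anti-RGMa. At the threshold used in the study (fold change over 1.5 with an unadjusted p under 0.05), 8 members were higher and 0 lower in anti-RGMa than in isotype control cord, where 1.22% of all genes were higher and 2.72% lower. No member passed an adjusted p under 0.05 in limma (lowest 0.188), where 0.00550% of all genes (1 gene) were higher and 0 lower, and 21 members had an unadjusted p under 0.05, of which 21 were higher, where 9.01% of all genes were higher and 6.77% lower. The median log2 fold change of the members was 0.33, against 0.01 over all genes. The number of members higher depended on single arrays. It was 4 without anti-RGMa replicate 5 or isotype control replicate 1, 5 without anti-RGMa replicate 2 and 18 without anti-RGMa replicate 6. Shares of all genes are not set beside these 1-array counts.

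Neuron markers moved in the same direction between these groups. Their median log2 fold change was 0.49, 2 of 10 were past the same threshold, and the group means of the list were 12.48 ± 0.36 in anti-RGMa and 11.99 ± 0.38 in isotype control (SD). With the neuron mean of each array as a covariate, 2 members were higher and 1 lower, and the median of the members was -0.02. Without the 3 isotype control arrays with muscle RNA 17 members were higher and 1 lower. That fit keeps isotype control replicates 1 and 2 only, and replicate 1 has the lowest neuron mean of its group (11.55). Without the 2 anti-RGMa arrays with ganglion RNA 15 were higher and 1 lower. Shares of all genes are not set beside the counts of these alternative fits, so they are not read as particular to the members.

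**Figure D5:**
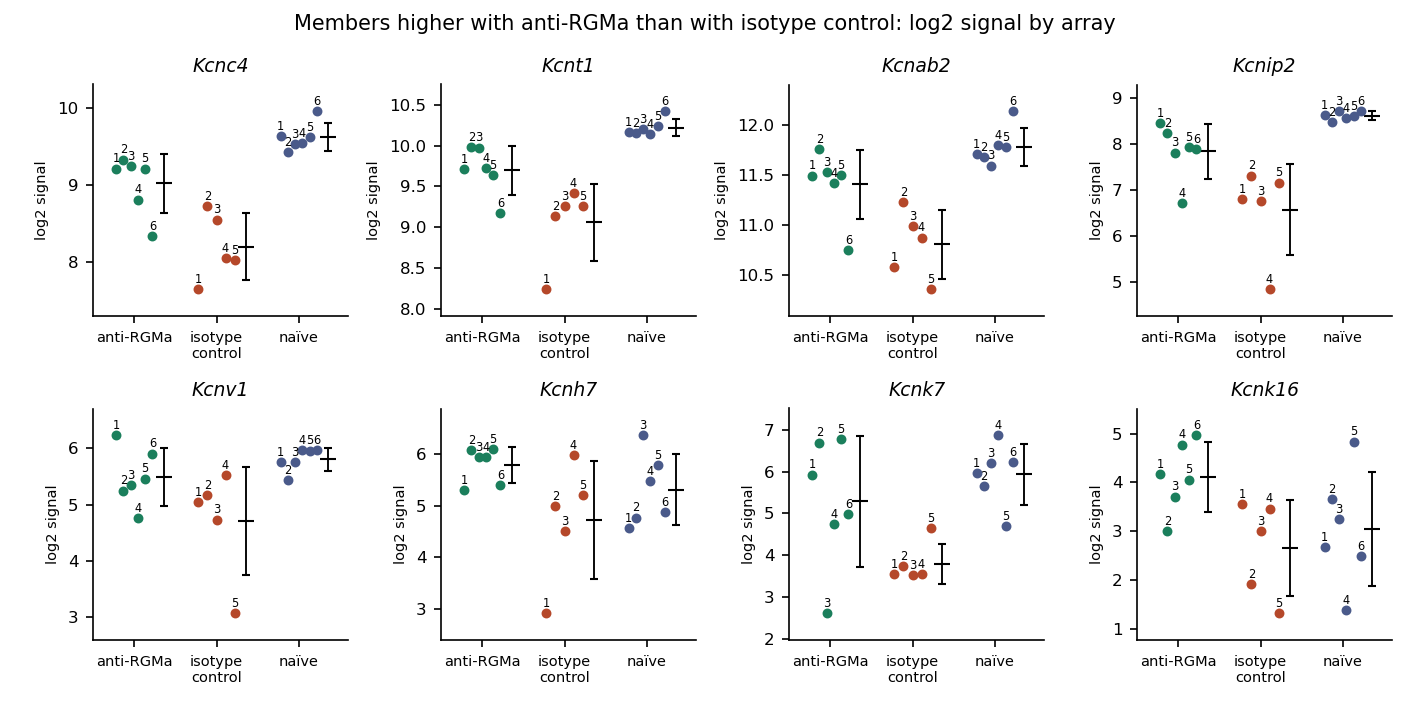
Log2 signal (y axis) of the 8 members past the study's threshold between the antibody groups, in each array (points, numbered by replicate) with the group mean and SD, for anti-RGMa, isotype control and naïve mice. In all 8 the anti-RGMa mean lies above the isotype control mean, some arrays of these groups overlap, and the lower row shows dim genes with wide spread.

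Kcnc4, an A-type pore of fast-firing neurons, had the smallest p. Its log2 signal was 8.33 to 9.33 (median 9.21) in anti-RGMa, 7.64, 8.72, 8.55, 8.05 and 8.01 in isotype control and 9.43 to 9.96 (median 9.58) in naïve cord. Anti-RGMa replicate 6 lay within the isotype control range, and the other anti-RGMa arrays lay above it. It was 1.78-fold higher in anti-RGMa (log2 0.83 ± 0.20, unadjusted p = 0.000949, adjusted p = 0.188). All 6 anti-RGMa arrays exceeded the average of isotype control, and the call held without any 1 array (0.69 to 0.97) but not with the neuron covariate (0.32). The log2 change against naïve was -1.43 ± 0.20 in isotype control cord and -0.60 ± 0.19 in anti-RGMa cord, and without the 2 arrays with ganglion RNA the change of anti-RGMa cord was -0.47 and did not pass. The other Kcnc4 probe set had 0.73 between the antibody groups.

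Kcnip2, an auxiliary subunit of the Kcnd pores, had 6.72 to 8.45 (median 7.91) in anti-RGMa, 6.80, 7.31, 6.77, 4.85 and 7.16 in isotype control and 8.47 to 8.71 (median 8.62) in naïve cord. Anti-RGMa replicate 4 lay within the isotype control range, and isotype control replicate 4, the array with the most muscle RNA, lay far below the others. It was 2.40-fold higher in anti-RGMa (log2 1.26 ± 0.37, unadjusted p = 0.00395, adjusted p = 0.222), and 0.83 to 1.49 with 1 array left out. Averaged over its 3 probe sets it was 0.40 and did not pass, the probe sets ranging from -0.84 to 1.26. Against naïve cord Kcnip2 changed by -2.03 ± 0.37 in isotype control (adjusted p = 0.000268), and its -0.77 ± 0.36 in anti-RGMa did not pass (adjusted p = 0.0962). The change in anti-RGMa did pass with averaged probe sets (-0.925), quantile normalization (-0.96) or an offset of 32 (-0.68). It also passed with the 2 groups alone, with the replicate block and without isotype control replicate 4.

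Kcnt1 had 9.17 to 9.98 (median 9.72) in anti-RGMa, 8.24, 9.14, 9.25, 9.42 and 9.26 in isotype control and 10.15 to 10.42 (median 10.19) in naïve cord. All but 1 anti-RGMa array lay above the isotype control range. The log2 fold change between the antibody groups was 0.64 ± 0.19 (1.56-fold, unadjusted p = 0.00365, adjusted p = 0.215). It was 0.58 without anti-RGMa replicate 2 or 3 and 0.43 without isotype control replicate 1, each under the fold threshold. The call was also lost with averaged probe sets (0.42) and with the neuron covariate (0.26).

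Kcnab2 had 10.75 to 11.76 (median 11.50) in anti-RGMa, 10.58, 11.23, 10.99, 10.87 and 10.36 in isotype control and 11.59 to 12.14 (median 11.75) in naïve cord. Anti-RGMa replicate 6 lay within the isotype control range and the other anti-RGMa arrays lay above it. The log2 fold change was 0.60 ± 0.18 (1.52-fold, unadjusted p = 0.00377, adjusted p = 0.218). Leaving out anti-RGMa replicate 2 (0.53), 3 (0.58) or 5 (0.58), or isotype control replicate 1 (0.55) or 5 (0.49), took it under the fold threshold. So did averaged probe sets (0.54), the neuron covariate (0.16) and the fit without the muscle arrays (0.50).

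The other members past the threshold, Kcnv1, Kcnh7, Kcnk7 and Kcnk16, had mean log2 signals under 7 in every group, and the last 3 are named after their values were seen. Kcnv1 (a silent modifier) had a log2 fold change of 0.79, a call lost without anti-RGMa replicates 1, 3, 5 or 6 or isotype control replicates 3 or 5, down to 0.38 without the last. Kcnh7 (an ERG-type pore) had 1.07, lost without anti-RGMa replicate 5 (1.01) or isotype control replicate 1 (0.62) or 3 (1.02). Kcnk7, whose product is not known to carry current alone, had 1.49, lost without anti-RGMa replicates 1, 2 or 5 or isotype control replicates 1, 3 or 4 (1.19 to 2.02 over all arrays left out). Kcnk16, a tandem-pore channel of the pancreas, had 1.47, lost without isotype control replicate 2 (1.28) or 5 (1.13), without the muscle arrays (1.38) or the ganglion arrays (1.24), with the ganglion covariate (1.22) and with the replicate block (1.44). Its size depends on the offset, and adding 16 or 32 to each signal gave 0.56 and 0.36, which did not pass. Adding 32 also ended the calls of Kcnv1 (0.37) and Kcnh7 (0.51). With the neuron covariate the calls of Kcnv1 (0.57), Kcnh7 (0.67) and Kcnk7 (1.42) were lost, and those of Kcnip2 (1.27) and Kcnk16 (1.84) were not.

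Several members of higher signal had a low unadjusted p in the limma fit but stood under the fold threshold. Kcnh2 was higher in anti-RGMa by 0.51 ± 0.17 (limma, unadjusted p = 0.00767), Kcnq3 by 0.44 ± 0.13 (unadjusted p = 0.00317), Kcnd3 by 0.43 ± 0.13 (unadjusted p = 0.00534) and Kcnk1 by 0.42 ± 0.13 (unadjusted p = 0.005). With the neuron covariate these differences were 0.057 for Kcnh2, 0.19 for Kcnq3, 0.20 for Kcnd3 and 0.17 for Kcnk1. For Kcnk1, anti-RGMa arrays ranged from 10.93 to 11.57 and isotype control arrays from 10.63 to 11.15. Kcna2 had 0.41 ± 0.22, which did not reach an unadjusted p under 0.05. Kcnab1 had 0.63 ± 0.31 (limma, unadjusted p = 0.0554), just short of the threshold. It passed with array weights (0.70), with the replicate block (0.77), with trend and robust variance (0.63), with an offset of 16 (0.62) or 32 (0.61), among genes of at least 7 in mean log2 signal, without anti-RGMa replicate 6 (0.87) or isotype control replicate 2 (0.77) or 3 (0.82), and without the ganglion arrays (0.86). With the neuron covariate it turned to -0.22. The axonal pore Kcna1 had 0.31 ± 0.15 (limma, unadjusted p = 0.0492).

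Proteins that bind, place or complete these channels were taken from a list of 20 genes, 19 of them measured. In isotype control cord 11 of 19 were lower than in naïve cord and 0 higher, with a median log2 fold change of -0.71, and in anti-RGMa cord 10 were lower, where 27.2% and 21.6% of all genes were lower. Dpp6 and Dpp10, membrane partners of the Kcnd pores, changed by -1.25 ± 0.15 and -1.68 ± 0.23 in isotype control, alongside Kcnd2 and the Kcnip genes. Cntnap2, the adhesion protein that holds Kcna channels beside the node, changed by -1.38, while its partner Cntn2, at mean log2 signals of 10.95 in anti-RGMa, 10.68 in isotype control and 10.70 in naïve cord, did not pass. Epb41l3, the scaffold below them, changed by -0.87, Lgi1, a secreted ligand of Kcna complexes, by -0.97, and Ank3, the node organiser that anchors Kcnq channels, by -0.62. Abcc8, the partner of Kcnj11, changed by -0.91, while Abcc9, the partner of Kcnj8, had -0.27 and did not pass.

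Between the antibody groups 2 of 19 partners were higher at the study's threshold and 0 lower, where 1.22% of all genes were higher and 2.72% lower. Amigo1, a partner of Kcnb channels, averaged 7.91 ± 0.44 in anti-RGMa and 7.25 ± 0.44 in isotype control, a log2 fold change of 0.66 ± 0.22 (unadjusted p = 0.00936, limma) that was lost without anti-RGMa replicate 1 (0.58) or isotype control replicate 5 (0.51) and with the neuron covariate (0.26). Dpp10 averaged 9.38 ± 0.42 in anti-RGMa and 8.79 ± 0.58 in isotype control, a change of 0.59 ± 0.23 that was lost without anti-RGMa replicate 1, 2, 3 or 5 or isotype control replicate 1, 4 or 5 (0.39 to 0.77 over all arrays left out). Dpp6 had 0.51 ± 0.15 (limma, unadjusted p = 0.00448) and Lgi1 0.49 ± 0.16 (limma, unadjusted p = 0.00794), both under the fold threshold.

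Different probe sets of a gene did not always move together. Of the 46 members with several probe sets, 17 had log2 fold changes on both sides of 0 in isotype control against naïve cord, and 20 between the antibody groups. In all, 37 of 46 had a probe set lower in isotype control than in naïve cord at an adjusted p under 0.05 over 34958 probe sets, and 27 had at least 2. Of all 9012 genes with several probe sets, 45% had one called lower and 24.2% had at least 2. In 4 members a probe set was higher, against 35.6% of all such genes, and Kcnj11 had probe sets called in both directions.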

How the data were processed

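RNA was measured on 1-colour Affymetrix Mouse Genome 430 2.0 arrays. The deposited signal intensity values are linear. The authors made them with MAS5.0 (version 5.0 of Microarray Suite) and applied global scaling to every array. The submitters' processing notes also name affy, and the scaling target is not given in the sources used here. No detection calls were used, so that fold changes of low signals are less certain, and precision is limited by how many arrays there are. Of 45101 probe sets, 34958 are annotated to 1 gene, and 34754 of these matched GRCm38.p6 by gene ID. A linear model with 3 groups was fitted to log2 intensities, without offset or filter, by lmFit and eBayes of limma 3.58.1 (R 4.3.3), with Benjamini-Hochberg adjustment over 18194 genes. Against naïve mice a gene was called at an adjusted p under 0.05. Between the antibody groups the study's threshold was used, a fold change over 1.5 with an unadjusted p under 0.05.

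The members, gene lists and alternatives were chosen with earlier results of these data known. Genes were named by rule: the largest called changes among members reaching a mean log2 signal of 8, those past the study's threshold or with the 4 smallest p in the treatment comparison, the member with the highest signal in each subfamily, and members known for a site or cell type. Others, named to complete a subfamily, were chosen after their values were seen. Some genes are not reported. On simulated data over 18194 genes for isotype control against naïve, 53% of 100 genes changed by 0.75 log2 and 74% of 100 changed by 1.5 log2 were called, and 7 of 17994 unchanged genes. Only those genes were changed there, whereas 24.6% of all genes were called higher and 27.2% lower in the real comparison. The simulated errors were independent, without muscle, ganglion or neuron differences between arrays. These shares therefore do not give the call rates of the real comparison. Promoter windows are from RefSeq. Alternatives covered scaling, offset, a dim filter, probe sets, variance model, array weights, arrays in the fit, a replicate block, covariates and arrays left out. Figures were drawn with matplotlib 3.10.9.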

Additional observations from a re-analysis of the deposited data

Results flagged for a closer look

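Arrays far from their group were looked for with Dixon's ratio (the gap to the nearest array over the whole range of the group) for 54 members in 3 groups. Of 162 groups 29 passed Dixon's critical value, which chance passes about 1 time in 20 for a single group. The same arrays enter for every gene, so the 162 groups are not independent and no excess over chance is read from the 29. The log2 signals of the arrays that stood apart were as follows, with the range of the other arrays of the group where it is given.

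Anti-RGMa replicate 6 was the lowest array of its group in 8 of these genes. Its signal was 9.07 for Kcnab1 (ratio 0.779, others 10.35 to 10.71), 10.29 for Kcna2 (0.798, others 11.23 to 11.47) and 10.75 for Kcnab2 (0.664, others 11.42 to 11.76). It was 12.16 for Kcna1 (0.721), 11.22 for Kcnc1 (0.733), 9.28 for Kcnh2 (0.773), 7.77 for Kcnma1 (0.784) and 7.33 for Kcnh1 (0.733). The neuron markers averaged 11.77 in this array and 12.47 to 12.74 in the other anti-RGMa arrays, and their part in these values was not tested. Other anti-RGMa arrays stood apart for Kcnip2 (replicate 4, 6.72, ratio 0.635), Kcnmb1 (replicate 2, 0.15, ratio 0.719) and Kcnj2 (replicate 4, 2.46, ratio 0.634).

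Isotype control replicate 1 was the lowest of its group for Kcnk12 (5.39, ratio 0.711), Kcnt1 (8.24, ratio 0.762), Kcnj9 (3.78, ratio 0.785) and Kcnj6 (5.98, ratio 0.78). Replicate 4 was the lowest for Kcnip2 (4.85, ratio 0.779) and replicate 2 for Kcnmb1 (0.38, ratio 0.724). Replicate 5 was the highest for Kcna3 (6.51, ratio 0.815) and Kcnk7 (4.64, ratio 0.806), and replicate 2 for Kcnmb4 (8.37, ratio 0.71).

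In naïve mice, replicate 6 was the highest for Kcnab2 (12.14, ratio 0.629), Kcnt1 (10.42, ratio 0.66), Kcnj16 (9.84, ratio 0.639) and Kcnmb4 (8.88, ratio 0.638), and the lowest for Kcnip3 (7.78, ratio 0.68). Replicate 5 was the highest for Kcnn4 (4.45, ratio 0.768) and the lowest for Kcnk6 (6.93, ratio 0.785). Replicate 4 was the lowest for Kcnn2 (9.03, ratio 0.806) and the highest for Kcnj6 (6.75, ratio 0.665).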

How the results depend on the processing

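With 1 array left out, 41 to 45 members were lower and 5 to 6 higher in isotype control than in naïve cord, and 26 to 36 lower and 4 to 6 higher in anti-RGMa. With the mean of a gene's probe sets, 3 members were higher in isotype control than in naïve cord. Shares of all genes are not set beside the counts of this section.

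Between the antibody groups the 8 higher members became 0 at an adjusted p under 0.05, 5 among genes of at least 7 in mean log2 signal in a group, 2 with the neuron covariate, 17 without the 3 muscle arrays, 15 without the 2 ganglion arrays, and 4 to 18 with 1 array left out. The 0 lower became 1 with an offset of 16 or 32, the muscle, neuron or ganglion covariate, or without the muscle or ganglion arrays, and 0 to 2 with 1 array left out. The median of 0.33 was -0.0215 with the neuron covariate and 0.20 to 0.43 with 1 array left out. The cause was not tested.

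With the neuron covariate the log2 fold change between the antibody groups turned in sign for Kcnn4 (0.0676), Kcnab3 (-0.41), Kcnab1 (-0.22), Kcnip1 (-0.0145), Kcnn2 (-0.0161), Kcnk12 (-0.29), Kcna2 (-0.20), Kcna1 (-0.0594), Kcnc1 (-0.007), Kcnd2 (-0.15), Kcns3 (-0.45), Kcnj9 (-0.54), Kcnj3 (-0.13), Dpp10 (-0.0124), Kcna4 (-0.0496), Kcnip3 (-0.0727), Kcnh1 (-0.0092), Kcnq5 (-0.0809), Kcns2 (-0.0734), Kcnc2 (-0.35), Kcnk3 (-0.34), Cntnap2 (-0.0788), Ank3 (-0.059) and Abcc8 (-0.18). With the mean of probe sets, Kcnj11 turned to 0.27 between the antibody groups, -0.66 in isotype control and -0.39 in anti-RGMa against naïve, Kcnk13 to 0.43 in isotype control, and Kcnip3 and Kcnd3 to -0.11 and -0.12 between the antibody groups. Kcnj13 turned to 0.17 between the antibody groups without anti-RGMa replicate 2 and 0.21 without the muscle arrays.

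Of the partners, 1 was higher in isotype control than in naïve cord with quantile normalization, 1 in anti-RGMa with array weights, and 0 to 1 in anti-RGMa with 1 array left out. Between the antibody groups the 2 higher became 1 with an offset of 16 or the 2 groups alone, 0 with the neuron covariate, the ganglion covariate, averaged probe sets or an offset of 32, 5 without the ganglion arrays and 0 to 4 with 1 array left out. The lower count was 1 with the neuron covariate and 0 to 1 with 1 array left out.

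The labels give same-numbered arrays nothing in common but the number, and a shared batch was not tested. Correlations of array deviations between the antibody groups ran from -0.30 to 0.40 over 5 same-numbered pairs and from -0.58 to 0.58 over 25 other pairs. With naïve arrays, same-numbered pairs had a median of 0.05 for each antibody group. The other pairs with naïve arrays had medians of -0.02 (anti-RGMa) and -0.01 (isotype control). With the replicate block 9 members were higher and 0 lower in anti-RGMa, and the median was 0.39.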
